A study of Caenorhabditis elegans with 6 samples.

Results

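The BATH, MATH and BTB genes of Caenorhabditis elegans were taken as every gene of the deposited RNA-seq table whose symbol starts with bath-, math- or btb-, with no minimum on the count. The rule gave 107 of the 31180 genes listed, of which 42 were bath-, 44 were math- and 21 were btb- genes. The annotation classed 85 of them as protein-coding genes and 22 as pseudogenes. A further 7 symbols with these prefixes in the RefSeq annotation were not among the rows analysed here.

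The RNA came from whole N2 worms, the Bristol wild type, fed OP50 bacteria and collected at L4, the last larval stage. HS worms were kept at 35°C for 4 h before collection (n = 3 libraries), and CTRL worms stayed at 20°C (n = 3 libraries). The study describes the libraries of each condition as independent biological replicates, and every library was made from total RNA after removal of ribosomal RNA. The level analysed here is the authors' mean normalized count of a gene over all 6 libraries, HS and CTRL together, so it carries no SD. It is not corrected for gene length, and genes are therefore compared with each other per kilobase (kb) of annotated exon. In RNA from whole worms, fewer cells of a type and less RNA per cell cannot be told apart. No comparison of HS with CTRL was made, since the only columns on that comparison are the authors' own results.

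BATH proteins carry a MATH domain and a BTB domain. The BTB domain binds the scaffold protein CUL-3 and the MATH domain holds a substrate, so that a BATH protein can act as the substrate adaptor of a CUL-3 ubiquitin ligase, as MEL-26 does for the katanin subunit MEI-1 in the early embryo. Genes named math- or btb- were named for a single one of these domains. The bath and math families have expanded greatly in C. elegans, largely as tandem copies.

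Most of the members were listed at low levels. The median over the 107 members was a mean normalized count of 35.5 (binomial 95% interval of the median, 23.3 to 62.2), and the levels spanned 0.181 to 4218. The interval treats the members as independent draws and measures no spread between libraries. A mean of at least 10 was reached by 73 members (68.2%), and a mean of at least 100 by 32 members (29.9%). The lowest mean of all 31180 genes was 0.114, the value of 1 read in 1 library. Genes without any read were therefore not listed, and the medians and shares given here are of listed genes only. Among the 85 protein-coding members the median was 37.9 and 35.3% reached 100, against a median of 122 and 52.6% among all 18768 protein-coding genes of the table. Per kb of exon, the same medians were 32.9 for the protein-coding members and 97.3 for all protein-coding genes. The 22 pseudogene members ran the other way, with a median of 22.5 against 4.12 for all 1642 pseudogenes. Per kb of exon, these were 27.6 for the pseudogene members and 6.28 for all pseudogenes. As each value is a mean over both conditions, these are descriptions of level and were not tested.

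**Figure D1:**
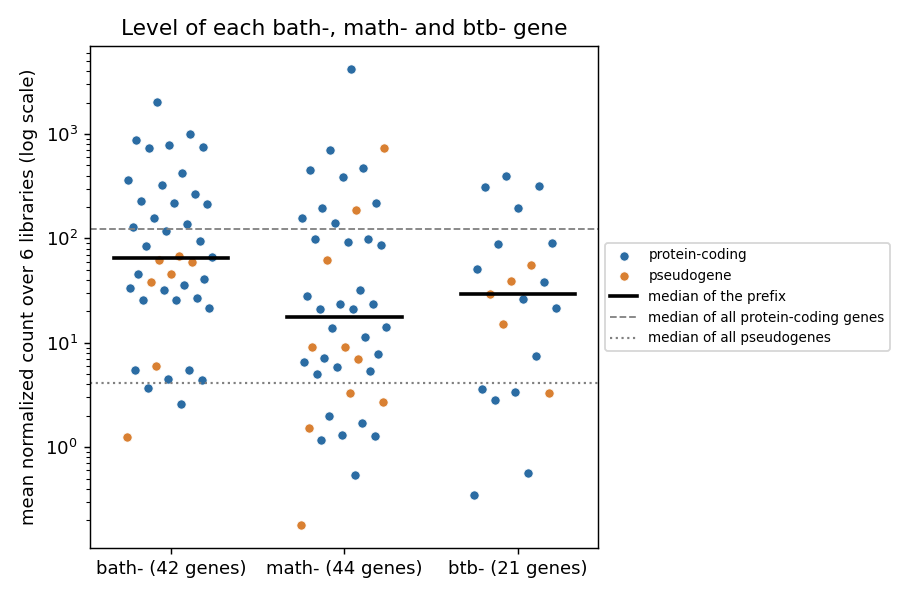
Each point is the authors' mean normalized count over the 6 libraries (log scale) of 1 bath-, math- or btb- gene, blue for protein-coding genes and orange for pseudogenes; black bars are the medians of each prefix and the grey lines the medians of all protein-coding genes (dashed) and all pseudogenes (dotted). The bath- median (64.5) is above those of btb- (29.6) and math- (17.6), and all 3 lie between the medians of all pseudogenes (4.12) and all protein-coding genes (122).

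The highest member was math-33 (WBGene00010406), with a mean normalized count of 4218. It encodes a deubiquitylating enzyme, the ortholog of mammalian USP7, and so removes ubiquitin from proteins, the opposite step to ligation. Its gene lies on chromosome V (11113907 to 11118824 of WBcel235, plus strand). The second was bath-42 (WBGene00016803) at 2048, whose protein has been shown to bind CUL-3. It lies on the minus strand of chromosome III, at 8161455 to 8163383. Because math-33 has 4225 bases of annotated exon and bath-42 has 1701, their order turned round per kb of exon, to 1204 for bath-42 and 998 for math-33.

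Of the bath- genes, bath-41 (1006), bath-36 (879), bath-44 (783), bath-34 (748) and bath-40 (728) followed bath-42. Per kb of exon the values of bath-41, bath-34, bath-36, bath-40 and bath-44 were 674, 627, 552, 490 and 450. These 6 bath- genes all lay outside the left arm of chromosome II, where most of the family is found. Of the math- genes, math-27 (729), math-26 (708), math-4 (469) and math-3 (449) followed math-33, and these 4 are close neighbours on chromosome II. The highest of them, math-27, is annotated as a pseudogene. The btb- genes stayed lower, with btb-20 (394), btb-14 (320), btb-19 (309), btb-2 (194) and btb-4 (90.8) at the top.

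Counts were concentrated in few members. The 107 members together held 0.0602% of all normalized counts of the table, and the 10 highest held 62.0% of the members' sum. The remaining members with a mean of at least 100 were bath-30 (423), math-20 (385), bath-15 (362), bath-5 (324), bath-38 (267), bath-2 (230), math-22 (221), bath-28 (219), bath-29 (212), math-41 (194), math-35 (188), math-24 (158), bath-27 (156), math-14 (141), bath-3 (138), bath-7 (128) and bath-1 (117). Of these, math-35 is a pseudogene.

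Genes of the CUL-3 ligase and other BTB genes were listed well above most members. A list of 24 genes of the CUL-3 ligase, of its NED-8 modification and of other BTB proteins was present in full, with a median of 815 and 23 genes at 100 or more. Per kb of exon, the median was 586 for the list and 32.9 for the members. The scaffold cul-3 had a mean normalized count of 2323 and the RING subunit rbx-1 had 810. Of the established substrate adaptors, mel-26 had 1317 and spop-1, the ortholog of human SPOP, had 868, while mei-1, which encodes the substrate of MEL-26, had 762. Per kb of exon, bath-42 (1204) was above cul-3 (734), mel-26 (767) and spop-1 (503).

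The ubiquitin-activating enzyme uba-1 was highest in the list (9509), followed by cand-1, a cullin exchange factor (4251). The ubiquitin-like modifier ned-8 had 680. The genes that act in attaching it to cullins lay close together, with 761 for ula-1, 746 for rfl-1, 678 for dcn-1 and 668 for ubc-12. The COP9 signalosome genes csn-1 to csn-6, whose complex removes NED-8, spanned 821 for csn-4 to 1657 for csn-2. Among the other BTB genes, hpo-9 had 1395, the transcription factor gene eor-1 had 699, kel-3 had 569, kel-10 had 567 and kel-8 had 555. The Kelch gene kel-1 had 52.1 and was the only listed gene under 100. Markers of body muscle (unc-54, 97339), germ line (pgl-1, 6929), cuticle (bli-1, 1755), intestine (ges-1, 815) and neurons (unc-119, 67.3) were all detected.

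Chromosome II held 91 of the 107 members (85.0%), against 17.1% of all protein-coding genes and pseudogenes of the table. Within it, 84 members, 19 of them pseudogenes, started in the first 4 Mb, between 1023693 and 3733181 of WBcel235. The 84 members of this arm had a median of 26.5, and 19 of them reached a mean of 100. Outside the arm there were 23 members, with a median of 267 and 13 members (56.5%) at 100 or more.

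The lower level on the arm was shared by its other genes. The 65 protein-coding members there had a median of 26.8, against 15.5 for the 818 other protein-coding genes of the same arm. The share that reached a mean of 100 was 26.2% of these members and 29.2% of the other protein-coding genes. Per kb of exon, the medians were 22.7 for the protein-coding members and 16.0 for the others.

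The members were arranged in tandem. With a gap of at most 10 kb between gene bodies, 81 of the 107 members fell into 16 clusters of 2 to 21 genes. Of the 65 pairs of members next to each other in a cluster, 52 were on the same strand. Neighbouring members nonetheless often differed in level, by a median of 2.95-fold per kb of exon (range 1.05 to 432). They were under 2-fold apart in 21 pairs (32.3%) and at least 10-fold apart in 16 pairs (24.6%). Among 944 other pairs of neighbouring genes on the arm, the median was 4.75-fold, with 24.2% under 2-fold and 34.4% at least 10-fold apart. Some pairs of members lie off the arm or have other genes between them, so the sets are not built alike.

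**Figure D2:**
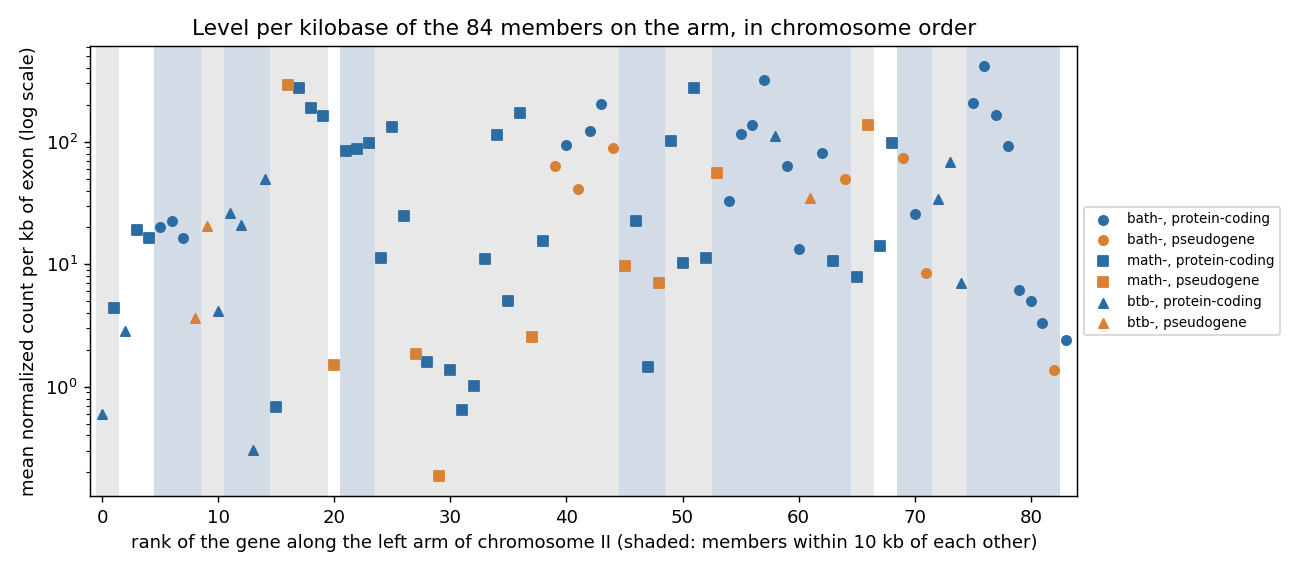
Authors' mean normalized count per kb of exon (log scale) of the 84 members on the left arm of chromosome II, placed by their order along the chromosome; shading joins members within 10 kb of each other, symbols give the prefix and colours the class. Stretches of high and of low members alternate within the shaded clusters, as in the last cluster, where 4 bath- genes at 92.1 to 413 are followed by 4 at 1.36 to 6.21.

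The largest cluster held 21 members over 62354 bases of chromosome II (1866381 to 1928734), 15 math- genes followed by 6 bath- genes. Of the 21, 6 are pseudogenes. Its math- genes alternated between high and low. The means were 140.9 for math-14, 158 for math-24 and 221 for math-22, but 28.2 for math-10, 13.7 for math-25, 11.3 for math-15, 6.62 for math-23, 5.32 for math-31 and 3.28 for math-30. Between them, math-11 (1.53), math-13 (1.31), math-8 (1.27), math-5 (1.16), math-6 (0.540) and math-17 (0.181) formed a run of 6 successive members that were almost not detected, and math-17 rested on 1 read in all 6 libraries. The 6 bath- genes at the end of the cluster were more even, with 230 for bath-2, 128 for bath-7, 95.3 for bath-4, 62.2 for bath-22, 58.9 for bath-11 and 38.2 for bath-6. Of these, bath-22, bath-11 and bath-6 are pseudogenes.

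The second cluster held 12 members over 38971 bases (2010205 to 2049175), with bath-5 (324), bath-3 (138) and bath-1 (117) next to each other at the top. The others were btb-4 (90.8), bath-19 (85.3), bath-24 (66.8), math-32 (62.2), bath-14 (45.3), bath-21 (33.5), btb-3 (29.6), bath-20 (25.5) and math-1 (5.93). The third cluster held 8 bath- genes over 37673 bases (3343731 to 3381403) and fell into a high and a low part. The high part was bath-30 (423), bath-28 (219), bath-29 (212) and bath-27 (156), and the low part bath-10 (5.54), bath-23 (4.54), bath-9 (3.69) and bath-8 (1.27).

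The steepest step between neighbours was in a cluster of 5 math- genes. There, math-28 had a mean of 1.72 from 10 reads in all, and math-27, 1255 bases further on the same strand, had 729, a 432-fold difference per kb of exon. Its next neighbour math-26 (708) was at nearly the same level as math-27. In a cluster of 4 btb- genes on the plus strand, btb-8 had a mean of 0.350 from 3 reads, while btb-7 (26.2), btb-6 (21.8) and btb-9 (51.1) around it were detected.

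Some of these counts may include reads of other genes. Annotated exons of 11 members share bases with another gene on the same strand, and with those that overlap a gene on the opposite strand the number is 18. The longest overlaps on the same strand were 610 bases of bath-27 with lido-14 and 469 bases of math-3 with F36H5.14. Whether reads were counted by strand is not given in the sources used here. Copies of these genes that are close to identical could also share reads, and their similarity was not analysed here.

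Each listed mean is the average of 6 whole read counts, each divided by the size factor of its library, and it is written with 15 significant digits. For low means, only a single set of whole counts gives the listed value, so that the reads per library could be worked back. This succeeded for 73 of the 75 members with a mean under 100. The exceptions, math-39 and math-18, had more than 1 solution, and the 32 members with higher means were not solved. The libraries obtained in this way carry no name and were not matched to HS or CTRL. They are numbered 1 to 6 by falling size factor (1.47, 1.44, 1.43, 0.923, 0.729 and 0.536), and nothing below compares the conditions. The spread between them includes whatever difference there is between HS and CTRL.

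The solved members had 1 to 695 reads in all, and 34 of the 73 had no read in at least 1 library. For ratios, a library without a read was given a floor of 3 reads, which is a normalized count of 2.05 in library 1 and 5.60 in library 6. Summed over the 73 members, the normalized counts of libraries 1 to 6 were 1854, 2069, 1829, 1709, 1735 and 1753, and the highest was 1.21-fold above the lowest. The sum was therefore nearly even while single members were not.

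Among the 39 solved members with at least 60 reads, the highest library was a median of 4.20-fold above the lowest. That median is the ratio of math-34, which was taken against the floor of 3 reads. Over the 39 members, the ratio was at least 4-fold in 21 (53.8%) and under 2-fold in 4 (10.3%). Over all 5349 genes solved with at least 60 reads, the median was 5.13-fold, with 59.97% at least 4-fold and 7.59% under 2-fold. For the 4277 protein-coding genes among them, the median was 4.69-fold. A library without a read, and so the floor, entered the ratio in 4 of the 39 members and 875 of the 5349 genes. The exact Poisson 95% intervals of the highest and the lowest library did not overlap in 36 of the 39 members (92.3%). This was so in 91.2% of the 5349 genes, and these intervals cover counting error only. The exceptions among the members were bath-39, btb-4 and math-48. Both libraries were picked as the extremes of the same counts, so the intervals do not keep 95% coverage. Some separation is built in by that choice, and the tally does not test for a difference between libraries. The same limit applies to the counting intervals and lower counting limits of single ratios given below.

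**Figure D3:**
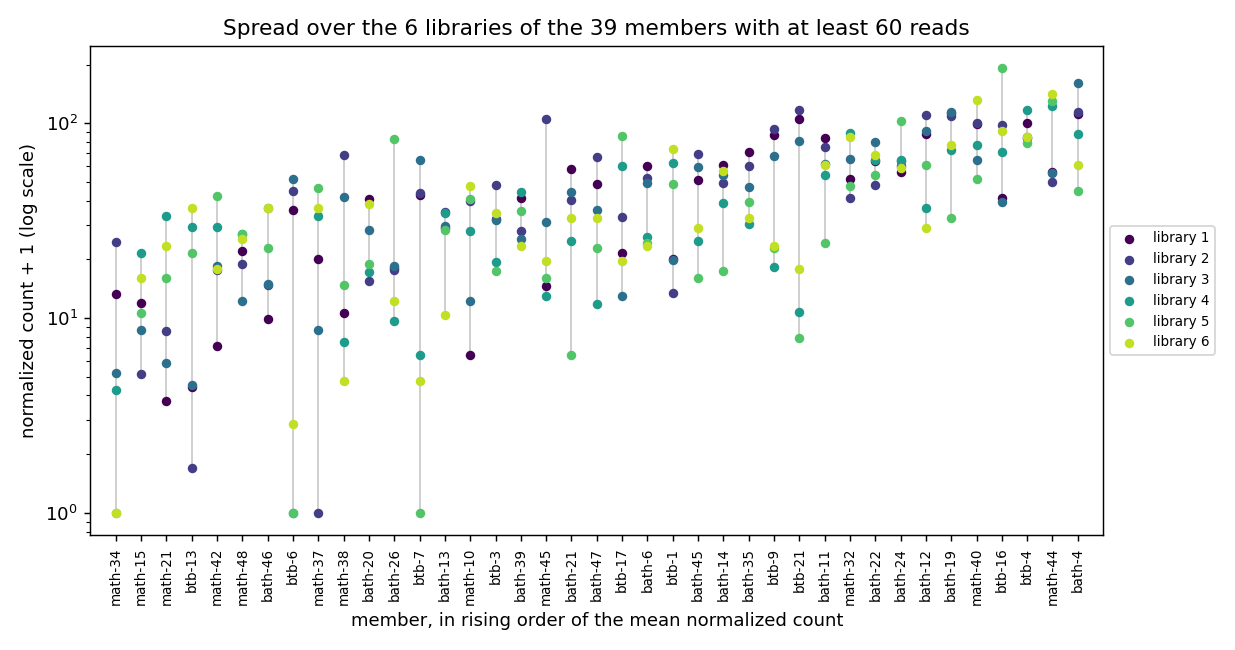
Normalized count plus 1 (log scale) in each of the 6 libraries for the 39 solved members (mean under 100) with at least 60 reads, in rising order of the mean; colours number the libraries by falling size factor and do not stand for conditions. The grey lines show the range, which reaches down to 1 where a library had no read (btb-6, btb-7, math-37, math-34) and is narrowest for btb-4.

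The 3 most even of these members sat in the tandem clusters described above. The next most even, bath-39 on chromosome V (1.93-fold), had no other member within 10 kb. The normalized counts of btb-4 were 99.6, 83.0, 84.0, 115.9, 78.1 and 84.0 in libraries 1 to 6, a 1.48-fold range (95% counting interval of the ratio, 1.07 to 2.08), and the Poisson intervals of its highest and lowest library overlapped. Those of the pseudogene bath-22 were 62.8, 47.1, 79.1, 63.9, 53.5 and 67.2, a 1.68-fold range. For bath-24 they were 55.3, 59.5, 63.0, 63.9, 101.4 and 57.9, and the 1.84-fold range came from library 5 alone.

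Of the solved members with a read in every library, btb-13, a pseudogene, had the widest range, with normalized counts of 3.41, 0.692, 3.50, 28.2, 20.6 and 35.5 in libraries 1 to 6. Its highest library was 51.3-fold above its lowest, which held 1 read (95% counting interval of the ratio, 8.15 to 2130). Libraries 1 to 3 were low and libraries 4 to 6 were high, with no overlap. The opposite order was seen in btb-21, a pseudogene on chromosome V, with 103.7, 115.6, 79.8, 9.75, 6.85 and 16.8, a 16.9-fold range (7.08 to 52.6).

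The protein-coding gene btb-7 had 41.6, 42.9 and 63.7 in libraries 1 to 3, and 5.42, 0 and 3.73 in libraries 4 to 6. Its highest library was 15.5-fold above 3 reads in library 5, and the lower 95% counting limit of the ratio was 12.3. Its neighbour btb-6, chosen here after its values were seen, had 34.8, 43.6 and 50.4 in libraries 1 to 3, and 0, 0 and 1.87 in libraries 4 to 6. The third detected gene of that cluster, btb-9, also chosen after its values were seen, had 86.0, 92.0, 67.2, 17.3, 21.9 and 22.4 in libraries 1 to 6. In all 3 genes, libraries 1 to 3 lay above libraries 4 to 6 with no overlap. Among solved genes with at least 60 reads, this order held for 35.9% of the 39 members and 15.2% of all 5349 genes. The opposite order held for 17.9% and 27.3%. Of the 34 solved members under 60 reads, 5.88% were highest in libraries 1 to 3 and 29.4% in libraries 4 to 6. Over all 73 solved members the shares were 21.9% and 23.3%, so the balance between both orders is not read from the 39.

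The normalized counts of math-37 were 19.1, 0, 7.70, 32.5, 45.2 and 35.5 in libraries 1 to 6. Library 5 was 21.8-fold above 3 reads in library 2, and the lower 95% counting limit of the ratio was 16.7. As in btb-13, libraries 4 to 6 were all above libraries 1 to 3. The normalized counts of math-38 were 9.55, 67.8, 40.6, 6.50, 13.7 and 3.73, with library 2 being 18.2-fold above library 6, which held 2 reads (95% counting interval, 4.90 to 152). In math-38 libraries 2 and 3 stood above the other libraries, and library 5 came next.

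**Figure D4:**
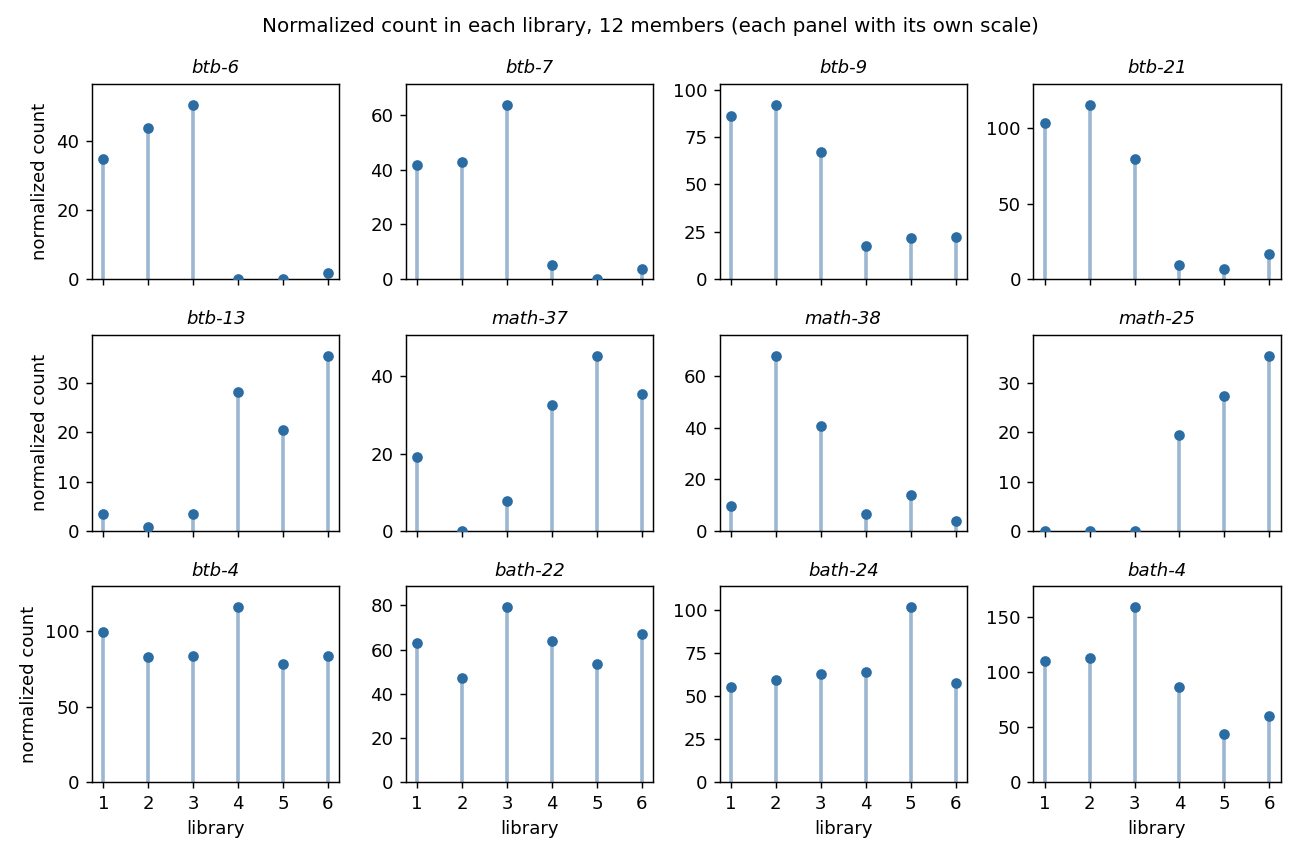
Normalized count of 12 members in each of the 6 libraries (bars from 0, each panel with its own scale), numbered by falling size factor and not matched to HS or CTRL. The upper row is high in libraries 1 to 3, btb-13, math-37 and math-25 are high in libraries 4 to 6, and btb-4 and bath-22 are nearly even; btb-6, btb-9, math-25 and bath-4 were chosen after their values were seen.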

How the data were processed

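RNA-seq of HS (n = 3) and CTRL (n = 3) worms was analysed from a single table. The authors aligned reads to WBcel235 with STAR, counted them on Ensembl 88 genes with FeatureCounts and compared the conditions in DESeq2. The signal value deposited by the authors (baseMean) is the mean over the 6 libraries of counts divided by DESeq2 size factors. The other 5 columns of the deposited table hold the authors' own comparison (log2 fold change, its standard error, the Wald statistic, p-value and adjusted p-value) and were not used, so no test was run.

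Gene IDs were matched to Ensembl 115 and RefSeq annotations of WBcel235. Symbols of 22 pseudogenes came from RefSeq alone, and 217 genes of the table had no position. Exon length is the union of annotated exons. Total reads per library are not given in the file. Starting size factors were taken from the lowest means shared by at least 20 genes, each the value of 1 read in 1 library. They were then refined by least squares over low means with a single solution at a wider tolerance. Means under 100 were then searched for every set of 6 whole counts that gives the listed value to a relative tolerance of 1e-15, and only single solutions were kept (18892 of 18892 genes under 50 and 1655 of 1910 from 50 to 100). The search was tested on counts simulated with the starting size factors, so errors in these factors were not tested. Where a library had no read, ratios were computed against 3 reads in it.

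Members and lists were chosen with earlier results of these data known. Genes named are the 5 highest of each prefix, members with a mean of at least 100, the 3 largest clusters, math-33, bath-42 and the pathway list. Of solved members with at least 60 reads, those with the 5 largest and 3 smallest ratios of highest to lowest library are named too. Others were chosen after their values were seen. Alternatives were other sources of symbols, protein-coding members alone, other minimums and gaps, levels per kb, a wider tolerance and leaving out each library. Python 3.11.15, numpy 2.4.6, pandas 2.3.3, scipy 1.17.1 and matplotlib 3.10.9 were used.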

Additional observations from a re-analysis of the deposited data

How the results depend on the processing

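The number of members moved with the level asked for, from 73 at a mean of at least 10 to 47 at 50 and 32 at 100, and 103 at 1. The share of the 10 highest members (62.0%) was 49.98% when levels were taken per kb of exon and 65.3% over protein-coding members alone. The median ratio of the highest to the lowest library (4.20) ranged between 2.88 and 4.54 when each library was left out in turn, and it was lowest without library 5. It was 4.54 when the members with a library at 0 were placed above every other ratio instead of at their ratio to 3 reads. Symbols from a single source gave 85 or 107 members, gaps of 5 and 20 kb placed 77 and 84 members in clusters, and a tolerance 10 times wider left 61 members with a single solution, all with the same reads. The median level was 37.9 over protein-coding members alone. The planned comparison of protein identity between members was not run, since no protein sequences were used here. No paired analysis was possible because the libraries were not matched to samples and no comparison was tested. The low members rest on few reads: 34 of the 73 solved members had a library with no read. In libraries 1 to 3, 57, 56 and 57 members had a read, and in each of libraries 4 to 6 the number was 60. Whether sequencing depth gave the empty libraries was not tested.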

Other observations

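The order of the libraries was tallied over the members. In 16 of all 73 solved members (21.9%) the 3 highest libraries were libraries 1, 2 and 3, which have the largest size factors, and in 17 (23.3%) they were libraries 4, 5 and 6. Over all 20547 solved genes, of which 5349 had at least 60 reads, the shares were 5.05% and 15.8%. The tally moved with the number of reads. Of the 39 solved members with at least 60 reads, 14 (35.9%) were highest in libraries 1 to 3 and 7 (17.9%) in libraries 4 to 6. Over all 5349 solved genes with at least 60 reads, these shares were 15.2% and 27.3%. Of the 34 solved members under 60 reads, 2 were highest in libraries 1 to 3 and 10 in libraries 4 to 6. The minimum is on raw reads, and a normalized count stands for more raw reads in a library with a large size factor. Whether this moved the tally was not tested, so the balance between both orders is not read from the 39 members. These counts were made after the values were seen, sharing of reads between cluster members was not tested, and the libraries carry no condition here.

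Both orders are seen in single members. The 57 reads of math-25 fell as 0, 0, 0, 18, 20 and 19 over libraries 1 to 6, so that the gene was seen in the 3 libraries with the smallest size factors and in no other. The reads of bath-9 were 11, 11, 10, 0, 0 and 0, and its highest normalized count was only 1.36-fold above 3 reads in library 6. The gene shares 208 of its 1119 exon bases with Y49F6C.2 on the same strand. Near the end of the largest cluster, bath-4 had normalized counts of 109.8, 112.8, 158.8, 86.7, 43.9 and 59.7, with libraries 1 to 3 above the others.

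A few values stood out in 1 library. The normalized count of math-45 was 104.5 in library 2 and 11.9 to 30.1 in the other libraries. That of bath-26 was 82.3 in library 5, against 8.67 to 17.5 in the others. The normalized count of bath-21 was 5.48 in library 5 and 23.8 to 57.3 in the others.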
